A study of Homo sapiens with 60 samples.

Results

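The genes described here are 42 human genes of the lysosome, of autophagy and of the signalling that switches both on, out of 60675 genes in the count table. They were chosen by name, from a list drawn up with earlier results of these data known. Each row whose Ensembl identifier maps to a symbol on the list was taken, and all 42 mapped and passed the filter on low counts. They were followed in A549 cells, a human lung adenocarcinoma line, by RNA sequencing 24 h after treatment. The treated groups were hot-water extracts of plant material at 20, 100 and 500 µg/mL: the decoctions Guibi-tang, Saengmaek-san, Soyo-san, Okbyeongpung-san and Soshiho-tang, and the single herbs Menthae Herba and Saposhnikoviae Radix. The reference was the vehicle, labelled 0.1% DMSO on the samples and 2% in the description of the series. Each group had 3 libraries except Soshiho-tang, which had 1 library per dose and is given without a test. The description also states that for some extracts the doses were set from the concentration that inhibits growth by 20%, while the labels print 20, 100 and 500 for every extract, so doses of different extracts may not be matched.

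Lysosomes degrade proteins, lipids and glycans delivered by endocytosis and autophagy. The kinase complex mTORC1 is recruited to the lysosomal surface by Rag GTPases when amino acids are plentiful, and folliculin, with its partners FNIP1 and FNIP2, sets the nucleotide state of RagC and RagD. Phosphorylation through this route holds the transcription factors TFEB, TFE3 and MITF in the cytoplasm. When it is relieved they enter the nucleus and bind E-box elements with the core CACGTG near lysosomal and autophagy genes, RRAGD among them, so RRAGD, NEU1 and SQSTM1 are commonly read as outputs of these factors.

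Promoter windows from 250 bases before to 50 after the start site (RefSeq, GRCh38.p14) were present for 29 of the 42 genes, in 37 windows. The letters CACGTG, which read the same on both strands, stood in a window of 9 of these 29 genes and in 7.256% of all 35116 windows of that length; a gene with several windows had more than 1 chance of a match. The match was present for 4 of the 9 genes with a window that rose with Guibi-tang at 500 µg/mL against vehicle, and for 5 of the 20 with a window that did not pass. The longer palindrome TCACGTGA, which contains the shorter, stood in 5 genes and in 0.98% of windows: in 1 of the 9 that rose, CTSA, and in 4 of the 20 that did not pass. A match is a description of these letters and not a binding site. The stretches below show NEU1, RRAGC and FNIP1, which rose against both vehicle and 20 and hold the shorter palindrome, cut to the bases upstream of the annotated gene, and, for contrast, the longer palindrome in GAA and MCOLN1, which did not pass; capitals mark CACGTG.
NEU1, chr6:31862907-31863071, minus strand: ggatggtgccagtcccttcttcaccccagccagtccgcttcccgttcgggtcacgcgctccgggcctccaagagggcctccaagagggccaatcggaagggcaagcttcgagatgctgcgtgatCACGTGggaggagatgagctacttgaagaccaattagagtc
RRAGC, chr1:38859824-38860022, minus strand: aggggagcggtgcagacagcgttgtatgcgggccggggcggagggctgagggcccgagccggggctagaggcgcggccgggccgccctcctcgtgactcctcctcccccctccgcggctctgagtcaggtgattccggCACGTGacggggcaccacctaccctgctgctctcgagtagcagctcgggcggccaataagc
FNIP1, chr5:131797064-131797267, minus strand: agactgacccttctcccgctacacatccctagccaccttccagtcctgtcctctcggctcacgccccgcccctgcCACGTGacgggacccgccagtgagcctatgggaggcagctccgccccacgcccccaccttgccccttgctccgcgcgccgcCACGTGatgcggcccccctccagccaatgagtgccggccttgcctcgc
GAA, chr17:80101493-80101522, plus strand: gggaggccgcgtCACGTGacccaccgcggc
MCOLN1, chr19:7522571-7522600, plus strand: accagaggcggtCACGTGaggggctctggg
The core lay 126 bases before the start site in NEU1, 112 in RRAGC, 175 and 94 in FNIP1, 76 in GAA and 41 in MCOLN1, counted to its first base; GAA and MCOLN1 each hold another core outside the stretch shown, 31 and 14 bases before the start site.

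Library totals ran from 18330592 to 35308791 counts. CPM is the count scaled to the size of the library. It is given without TMM factors for the cell type markers of this paragraph and with them in all later paragraphs. The epithelial keratins KRT8 and KRT18 were at 2657 to 3639 CPM and 2229 to 2884 CPM in every library. The 5 epithelial markers summed to 5021 to 6450 CPM, with EPCAM lowest at 3.76 to 6.23 CPM. The 5 leukocyte and macrophage markers summed to 9.51 to 21.3 CPM, of which CD68, itself a lysosomal membrane protein, made up 6.63 to 19.04 CPM and CD14 1.55 to 3.34 CPM, while PTPRC was at most 0.0516 CPM. The 5 fibroblast markers summed to 27.1 to 41.5 CPM, nearly all of it COL1A1, and COL1A2 was at most 0.104 CPM. In the order of the table's columns, expression stepped after library 31. This cut accounted for 82.15% of the first principal component, which itself held 14.27% of the variance. The share of mitochondrially encoded counts was 10.7 to 13.9% in the 31 libraries before the step and 12.9 to 22.2% in the 29 after it. Guibi-tang 500 replicates 1 and 2 lie before the step and replicate 3 after it. At Guibi-tang 20 and at Guibi-tang 100 replicate 1 lies before it and replicates 2 and 3 after. All vehicle libraries lie before it. All Soyo-san, Okbyeongpung-san and Soshiho-tang libraries lie after it, so for these extracts no contrast with vehicle can be made within one side of it. A fit with a term for the step estimates it from the Guibi-tang and Saengmaek-san groups, which have libraries on both sides, and assumes that it is the same in all groups. What the step is was not given in the sources used here.

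Guibi-tang at 500 µg/mL raised genes of the Rag and folliculin complex, several hydrolases, cholesterol export genes and SQSTM1. None of the 3 transcription factors or 6 proton pump genes passed in the main fit. For lists so short this cannot be set apart from the share passing over all tested genes. Against vehicle, 14 of the 42 genes rose, 0 fell and 28 did not pass (edgeR quasi-likelihood test, Benjamini-Hochberg adjusted p under 0.05 over 17256 genes), where 4.42% of all tested genes passed in either direction and 2.63% rose. The median log2 change over the 42 was 0.09, against -0.0008 over all tested genes, and 38 of the 42 were above 0. Against Guibi-tang at 20 µg/mL, 13 of the 42 rose and 0 fell, where 0.997% of all tested genes passed and 0.748% rose, and the median over the 42 was 0.15, against 0.0011 over all tested genes. The calls shared 11 genes, a count that is not independent because both comparisons use the Guibi-tang 500 libraries. Nor is the excess over all tested genes independent support, because the 42 were chosen with earlier results of these data known. Some of the 28 that did not pass against vehicle passed in fits that take account of the step, and they are not named gene by gene here. With a term for the step 17 of 42 rose against vehicle, where 10% of all tested genes passed and 4.9% rose. With only the libraries before the step, 18 of 42 rose against vehicle, where 10.5% of all tested genes passed and 5.23% rose. In the same fit 6 rose against 20, with 1 library left at 20, where 0.38% passed and 0.285% rose. In bulk RNA, less RNA of a gene per cell and fewer cells that express it cannot be told apart, nor can more of either. Whether replicate libraries stem from different cultures is not stated, and the p-values then reflect library-to-library spread that may be technical.

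**Figure D1:**
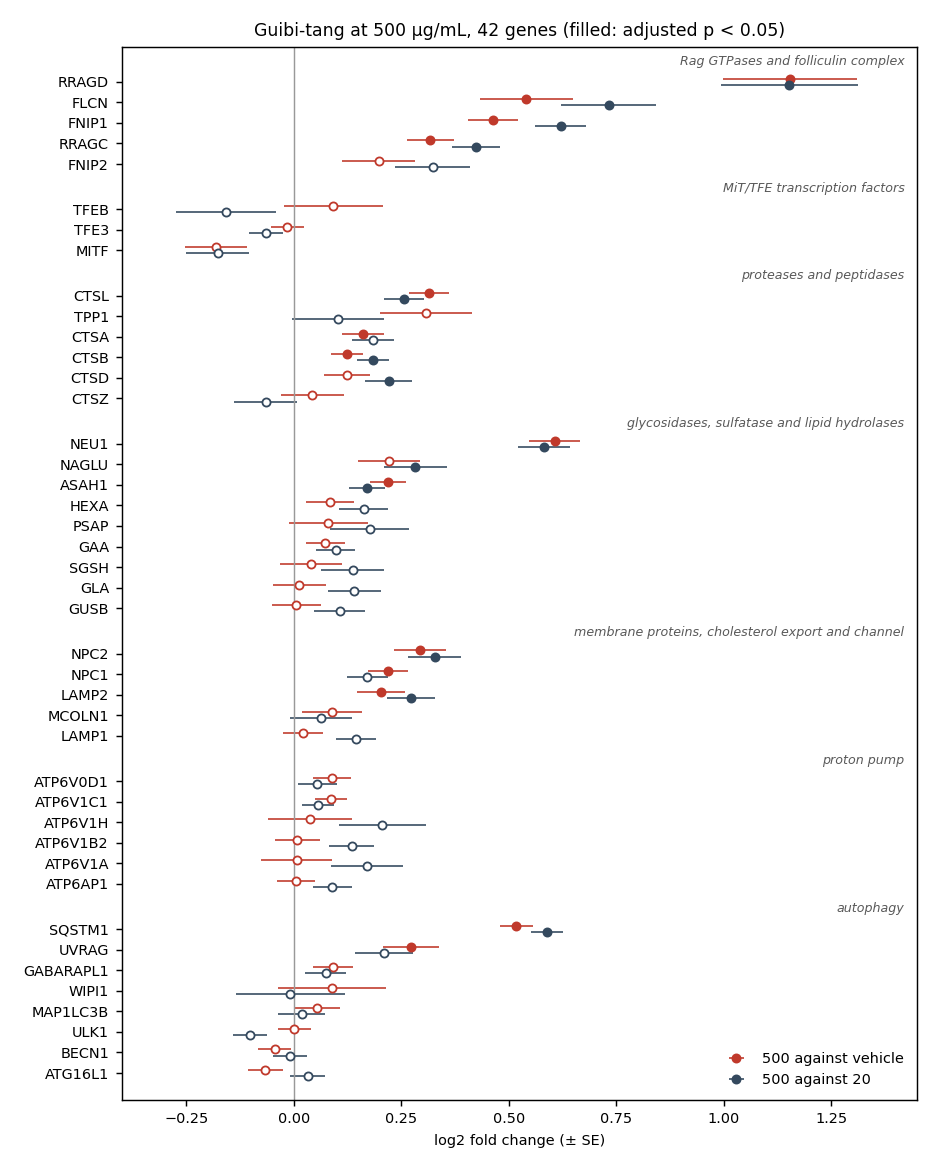
Log2 fold change of each of the 42 genes at 500 µg/mL of Guibi-tang against vehicle (red) and against 20 µg/mL (dark), with standard errors from the fit, ordered by role. Filled points passed at an adjusted p under 0.05: 14 against vehicle and 13 against 20, with RRAGD farthest to the right at 1.15 in both.

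The genes of the Rag GTPases and the folliculin complex had the largest median change of the 7 role groups: 4 of 5 rose in both comparisons, with a median log2 change of 0.46 against vehicle and 0.62 against 20. RRAGD, which encodes the RagD GTPase (ENSG00000025039, chromosome 6, 89364636 to 89412270, minus strand, GRCh38), had 3.62, 3.57 and 4.18 CPM in Guibi-tang 500 libraries, against 1.67, 1.75 and 1.65 CPM in vehicle libraries. All 3 treated libraries lay above all 3 vehicle libraries. The log2 fold change was 1.15 ± 0.155 (SE, n = 3 each), with an adjusted p of 1.02e-06 by edgeR. RRAGD had 1.64, 1.92 and 1.54 CPM at 20 µg/mL and 1.74, 2.31 and 1.91 CPM at 100 µg/mL of Guibi-tang. Those 6 libraries lay below every library at 500, and the change of 500 against 20 was 1.15 ± 0.160 (edgeR adjusted p = 4.14e-06). RRAGD is a low gene in these cells, and its precision is limited by counts.

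FNIP1, the folliculin-interacting partner, had 39.8, 39.7 and 37.9 CPM in Guibi-tang 500 libraries, against 27.8, 27.9 and 29.4 CPM in vehicle libraries and 26.7, 24.1 and 25.3 CPM in Guibi-tang 20 libraries. The treated libraries at 500 did not overlap either group, and the log2 changes were 0.46 ± 0.0581 and 0.62 ± 0.0597 (edgeR adjusted p = 2.66e-07 and 6.51e-10). FLCN, folliculin itself, had 38.5, 38.5 and 28.3 CPM at 500, against 25.3, 22.97 and 24.5 CPM in vehicle and 24.8, 16.5 and 21.8 CPM at 20. Replicate 3 at 500, the library after the step, was lower than its group mates but still above every vehicle and every Guibi-tang 20 library. The FLCN changes were 0.54 ± 0.108 against vehicle and 0.73 ± 0.111 against 20 (edgeR adjusted p = 8.54e-04 and 2.46e-05), and 0.65 and 0.61 with a term for the step. RRAGC, the RagC GTPase, had 25.4, 27.3 and 26.3 CPM at 500, against 21.3, 20.7 and 21.4 CPM in vehicle and 21.2, 18.6 and 18.97 CPM at 20. The groups did not overlap, and the changes were 0.32 ± 0.0548 and 0.42 ± 0.0563 (edgeR adjusted p = 1.05e-04 and 1.71e-06). FNIP2, the other folliculin partner, was 0.20 above vehicle and 0.32 above 20 and did not pass either test. The annotated exons of FLCN, FNIP1 and RRAGC overlap those of another gene on the same strand. These are AC055811.2, AC008695.1 and AL139260.2, which averaged 5.1, 7.2 and 0.5 counts. Of the called genes in other groups, CTSD overlaps AC068580.4 in this way (1304 of 3126 bases, 15.3 counts) and NAGLU overlaps AC067852.1 (379 of 3004 bases, 0.5 counts).

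The transcription factors themselves did not pass at the RNA level. TFEB was 0.09 ± 0.115, TFE3 -0.01 ± 0.0386 and MITF -0.18 ± 0.0719 on the log2 scale at 500 of Guibi-tang against vehicle. Against 20 all of them were below 0, from -0.18 to -0.06. In the other 5 extracts at 500 against vehicle TFEB ranged from 0.13 to 0.29, TFE3 from -0.02 to 0.11 and MITF from -0.17 to 0.07, and none of these passed; with a term for the step TFEB in Okbyeongpung-san 500 was 0.42 ± 0.131 (edgeR adjusted p = 0.0371). These values say nothing of where the proteins were in the cell.

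Among the hydrolases, NEU1, lysosomal sialidase, changed most. NEU1 (ENSG00000204386, chromosome 6, 31857659 to 31862906, minus strand) had 23.5, 22.1 and 23.3 CPM in Guibi-tang 500 libraries, against 14.7, 15.5 and 14.8 CPM in vehicle libraries. It had 16.5, 14.02 and 15.3 CPM at 20 and 15.1, 14.9 and 14.8 CPM at 100. The groups at 500 and at every lower dose or vehicle were apart. The log2 change was 0.61 ± 0.0595 against vehicle and 0.58 ± 0.0608 against 20 (edgeR adjusted p = 5.19e-10 and 4.61e-09). ASAH1, acid ceramidase, had 69.6, 64.4 and 63.4 CPM at 500, against 57.5, 56.9 and 54.96 CPM in vehicle and 58.2, 56.03 and 60.95 CPM at 20. It rose by 0.22 ± 0.0417 and 0.17 ± 0.0421 (edgeR adjusted p = 4.13e-04 and 0.0255), and the second call was lost without replicate 1 or 2 at 500 or replicate 1 or 2 at 20, with an adjusted p of up to 0.295 without Guibi-tang 500 replicate 1. NAGLU, which removes N-acetylglucosamine from heparan sulfate, passed against 20 (0.28, adjusted p = 0.0441) and not against vehicle (0.22, adjusted p = 0.0701), and lost the first call without replicate 1 or 2 at 500 or replicate 2 or 3 at 20, with up to 0.382 without Guibi-tang 500 replicate 2. It also lost that call with a term for the step (0.23, adjusted p = 0.0622) and with only libraries before the step (0.24, 0.226), and ASAH1 lost its call against 20 in that last fit (0.0793). The other 6 of the 9 genes listed with the glycosidases, sulfatase and lipid hydrolases are GLA, HEXA, GUSB, SGSH, GAA and PSAP. These 6 passed neither test in the main fit, and calls gained in fits that take account of the step are not named here. With NAGLU they were 0.01 to 0.22 above vehicle, and without it 0.10 to 0.18 above 20. PSAP had 727.1 and 709.5 CPM at 500 before the step and 582.2 CPM after it. It had 682.1 CPM at 20 before the step and 525.0 and 576.8 CPM after it, and 630.7, 638.1 and 639.7 CPM in vehicle.

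Of the 6 proteases and peptidases, 3 rose against vehicle and 3 against 20. CTSL, cathepsin L, had 260.6, 250.8 and 257.6 CPM at 500, against 201.0, 211.2 and 205.9 CPM in vehicle and 215.2, 214.0 and 213.7 CPM at 20. It lay above both groups, by 0.31 ± 0.0466 and 0.26 ± 0.0467 (edgeR adjusted p = 8.15e-06 and 6.57e-04). CTSB, cathepsin B, had 230.3, 223.4 and 213.9 CPM at 500, against 200.9, 208.2 and 203.1 CPM in vehicle and 203.6, 193.9 and 189.3 CPM at 20. The groups did not overlap, but the changes were small, 0.12 ± 0.0376 and 0.18 ± 0.0378 (edgeR adjusted p = 0.0456 and 0.00336). CTSA, the protective protein that forms a complex with NEU1, rose by 0.16 against vehicle, and CTSD, cathepsin D, by 0.22 against 20. TPP1, tripeptidyl peptidase, was 0.31 above vehicle with an adjusted p of 0.096, and CTSZ did not pass. The vehicle calls of CTSA and CTSB each disappeared in 5 of 6 fits without 1 library, the exceptions being Guibi-tang 500 replicate 2 for CTSA and replicate 3 for CTSB, with an adjusted p of up to 0.249 and 0.217 without Guibi-tang 500 replicate 1, and CTSD lost its call against 20 in 4 of 6 (replicates 1 and 2 at 500, replicates 2 and 3 at 20), with up to 0.229 without Guibi-tang 20 replicate 2. CTSB lost its call against 20 without Guibi-tang 500 replicate 1 (0.0671) or Guibi-tang 20 replicate 3. With only libraries before the step CTSB, CTSD and CTSL did not pass against 20 (adjusted p = 0.169, 0.554 and 0.0533), nor CTSA against vehicle (0.097).

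Of the 5 membrane, cholesterol export and channel genes, NPC2, NPC1 and LAMP2 rose against vehicle. NPC2, which hands cholesterol to NPC1 in the lumen, had 41.1, 39.1 and 37.4 CPM at 500, against 33.03, 30.7 and 32.4 CPM in vehicle and 33.9, 29.9 and 29.8 CPM at 20. It was higher in all 3 libraries at 500, by 0.29 ± 0.061 and 0.33 ± 0.0622 (edgeR adjusted p = 0.00141 and 0.00119). NPC1, the membrane exporter, rose by 0.22 against vehicle (edgeR adjusted p = 0.00192) and was 0.17 above 20 with an adjusted p of 0.0608. LAMP2, a heavily glycosylated protein of the limiting membrane, had 135.5, 134.2 and 121.9 CPM at 500, against 112.6, 113.1 and 114.3 CPM in vehicle and 119.3, 99.9 and 104.5 CPM at 20. The groups did not overlap, and the changes were 0.20 ± 0.0552 and 0.27 ± 0.0557 (edgeR adjusted p = 0.0213 and 0.00332). LAMP2 lost its vehicle call in 5 of 6 fits without 1 library, all but that without Guibi-tang 500 replicate 3, with up to 0.122 without replicate 1. Its call against 20 was lost without Guibi-tang 500 replicate 1 or Guibi-tang 20 replicate 2, with up to 0.0969. With only libraries before the step neither LAMP2 nor NPC2 passed against 20 (adjusted p = 0.0758 and 0.119). LAMP1 and the calcium channel MCOLN1 were 0.02 and 0.09 above vehicle and passed neither test.

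None of the 6 proton pump genes, ATP6V0D1, ATP6V1A, ATP6V1B2, ATP6V1C1, ATP6V1H and ATP6AP1, passed either test. Their log2 changes were 0.01 to 0.09 against vehicle and 0.06 to 0.21 against 20. All 6 were above 0 in both comparisons, with 1 and 3 at an unadjusted p under 0.05. Over all tested genes 4.42% and 0.997% passed, so 0 of 6 does not set this list apart. The 6 genes encode subunits and an accessory protein of the V-ATPase, which acidifies the lysosome.

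Of the 8 autophagy genes, 2 rose against vehicle. SQSTM1, the cargo receptor p62 (ENSG00000161011, chromosome 5, 179806398 to 179838078, plus strand), had 1114, 1089 and 1045 CPM in Guibi-tang 500 libraries, against 738.0, 758.8 and 771.0 CPM in vehicle libraries. It had 763.0, 689.4 and 704.4 CPM at 20 and 747.1, 695.9 and 735.4 CPM at 100. Every library at 500 lay above every library of the other 3 groups. The changes were 0.52 ± 0.0383 against vehicle and 0.59 ± 0.0383 against 20 (edgeR adjusted p = 8.96e-14 and 2.07e-15). Exons of SQSTM1 overlap 1582 of 7654 bases with MRNIP on the other strand; the kit keeps strand, but the strand setting of the counting was not given in the sources used here. UVRAG, a subunit of a class III PI3-kinase complex, rose by 0.27 against vehicle (edgeR adjusted p = 0.00743), which became 0.0985 without vehicle replicate 1, and was 0.21 above 20 with an adjusted p of 0.143. MAP1LC3B, GABARAPL1, WIPI1, BECN1, ULK1 and ATG16L1 were between -0.07 and 0.09 against vehicle and did not pass.

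**Figure D2:**
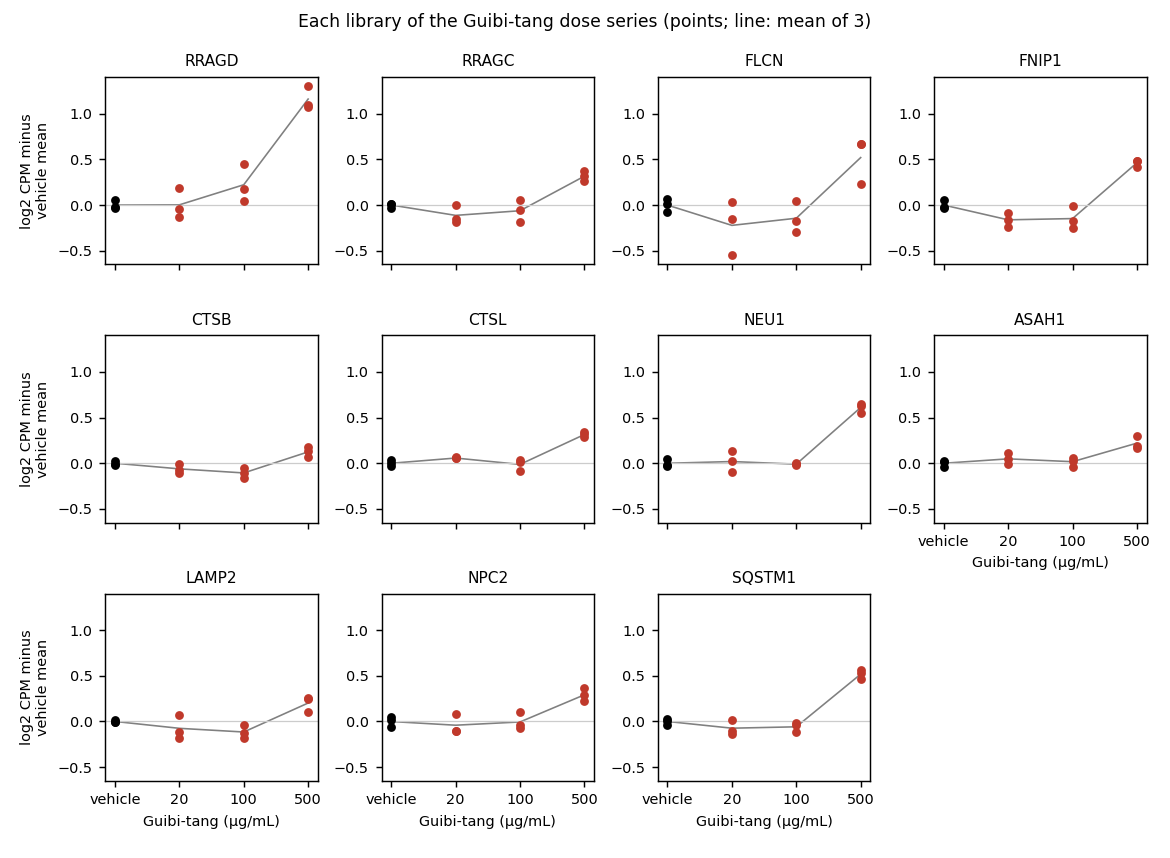
Log2 CPM minus the vehicle mean in each library of vehicle and of Guibi-tang at 20, 100 and 500 µg/mL, for the 11 genes that rose at 500 against both vehicle and 20; the line joins group means of 3. The rise appears at 500, with 20 and 100 near or below the vehicle mean for most of them. Replicates 2 and 3 at 20 and 100 and replicate 3 at 500 lie after the step, and all vehicle libraries before it.

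At the lower doses of Guibi-tang 0 of the 42 genes passed at 20 and 0 at 100 against vehicle by edgeR, with 7 and 8 at an unadjusted p under 0.05 and 0 and 0 by DESeq2. Over all tested genes 1.35% passed at 20 and 1.41% at 100. The median log2 change over the 42 was -0.03 at 20 and -0.05 at 100. Replicates 2 and 3 at both doses lie after the step and all vehicle libraries before it. The step therefore enters these changes, and values below 0 cannot be told apart from it. RRAGD was 0.00 ± 0.171 against vehicle at 20 and 0.22 ± 0.167 at 100, and neither value passed. NEU1 was 0.03 and -0.01, and SQSTM1 -0.07 and -0.06, at 20 and 100.

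Over the whole study the 3 marker genes of this list, which was chosen with earlier results known, were highest in Guibi-tang 500. The lowest Guibi-tang 500 library had 22.1 CPM of NEU1, against a highest value of 17.01 CPM among the other 57 libraries, in Saposhnikoviae Radix 100. For SQSTM1 the lowest was 1045 CPM, against 879 CPM in Soshiho-tang 500. For RRAGD the lowest was 3.57 CPM, against 2.96 CPM in Menthae Herba 500. Against vehicle, the other 17 tested combinations of extract and dose ranged from -0.14 to 0.09 for NEU1, -0.08 to 0.07 for SQSTM1 and -0.06 to 0.62 for RRAGD on the log2 scale, and of these only RRAGD in Menthae Herba 500 passed.

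**Figure D3:**
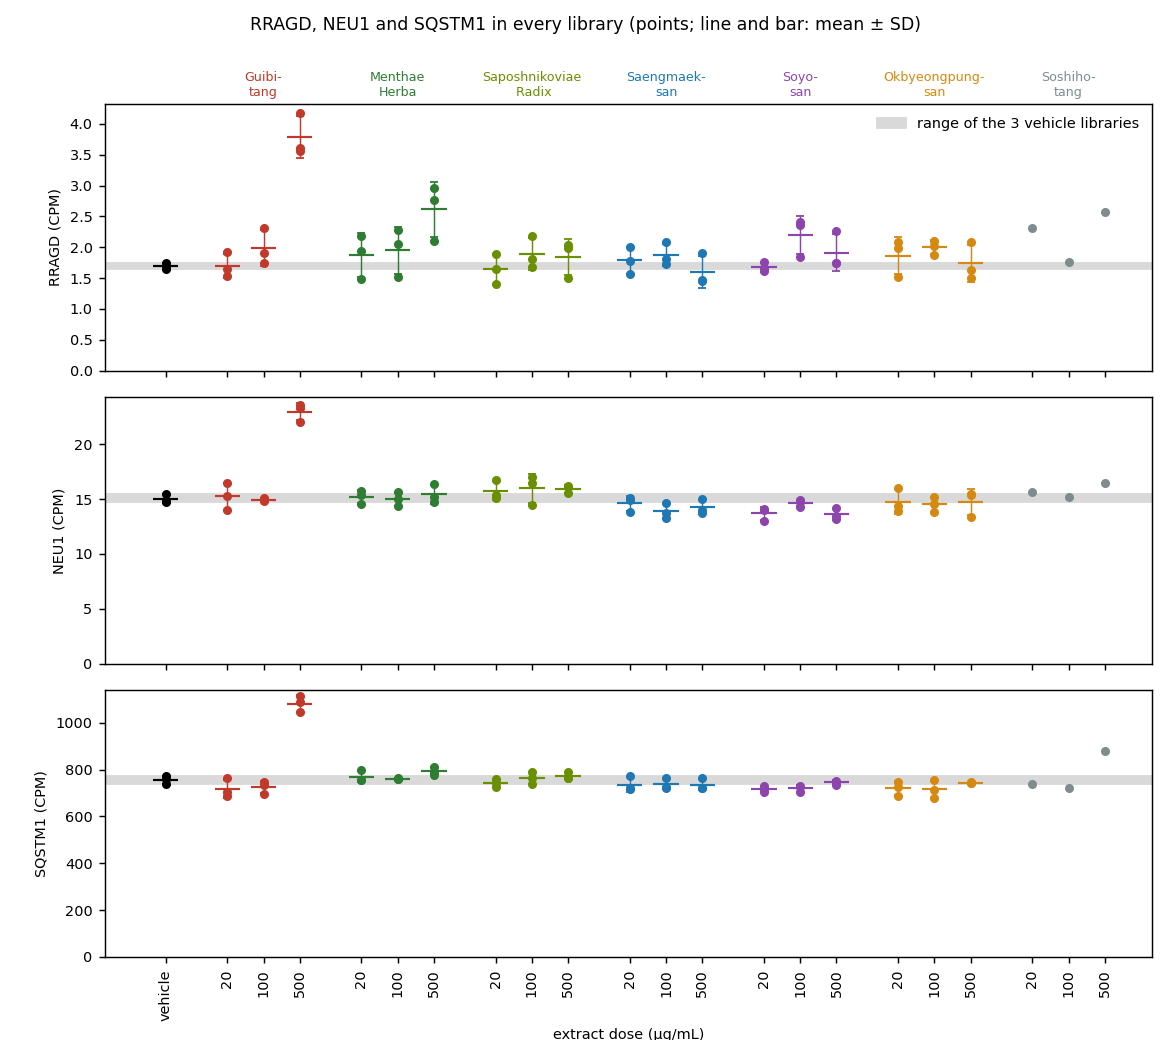
CPM of RRAGD, NEU1 and SQSTM1 in every library, with vehicle at the left and doses from 20 to 500 µg/mL for each extract; lines and bars give mean ± SD of 3 libraries, and the grey band is the range of the vehicle libraries. The Guibi-tang 500 libraries stand above all others in each panel, and RRAGD is also raised in Menthae Herba 500.

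The other extracts at 500 gave few calls, and all contrasts with vehicle share the same 3 vehicle libraries. With Menthae Herba 2 of 42 rose, where 6.77% of all tested genes passed and 3.34% rose. RRAGD had 2.11, 2.77 and 2.96 CPM in Menthae Herba 500, against 1.67, 1.75 and 1.65 CPM in vehicle, without overlap. Its change was 0.62 ± 0.161 (edgeR adjusted p = 0.0112), which did not pass without Menthae Herba 500 replicate 2 or replicate 3, with up to 0.085. ULK1, the kinase that starts autophagy, had 151.3, 154.2 and 150.7 CPM in Menthae Herba 500, against 136.2, 133.3 and 130.4 CPM in vehicle, and rose by 0.19. ULK1 also rose with Okbyeongpung-san 500, at 157.1, 153.2 and 155.8 CPM, by 0.22, and was 0.00 in Guibi-tang 500.

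With Okbyeongpung-san 500 a further 2 of 42 fell, where 3.39% of all tested genes passed, 1.96% rose and 1.43% fell: the pump subunit ATP6V1B2 by -0.20 and ATG16L1, which helps attach lipid to LC3, by -0.17. With Soyo-san 500, where 6.03% passed and 2.93% fell, 2 fell: CTSL by -0.15 and ATP6V1B2 by -0.17. With a term for the step these became -0.07 (adjusted p = 0.383) and -0.12 (0.0638) for Okbyeongpung-san, and -0.14 (0.0824) and -0.03 (0.712) for Soyo-san, and none of these passed. In that fit 5 of 42 rose and 0 fell with Okbyeongpung-san, where 12.5% of all tested genes passed: ULK1, TFEB, FLCN (0.28), PSAP (0.23) and LAMP2 (0.13). With Soyo-san 1 fell, MAP1LC3B (-0.15), where 11.7% passed. ULK1 in Okbyeongpung-san kept 0.20 (adjusted p = 0.00157). The ATP6V1B2 call was lost in 6 of 6 fits without 1 library for Okbyeongpung-san (adjusted p up to 0.0757) and in all but that without replicate 3 for Soyo-san (up to 0.188). CTSL lost its Soyo-san call in all but the fit without Soyo-san 500 replicate 2 (up to 0.204), and ATG16L1 without Okbyeongpung-san 500 replicate 1 or replicate 3 (up to 0.0665).

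With Saposhnikoviae Radix and Saengmaek-san at 500, 0 of 42 passed against vehicle by edgeR, with 5 and 1 at an unadjusted p under 0.05 and 1 and 0 by DESeq2, where 1.56% and 0.614% of all tested genes passed. For 500 against 20, NPC1 fell with Menthae Herba, at 52.2, 54.2 and 47.8 CPM at 500, against 61.8, 57.8 and 60.5 CPM at 20, by -0.23 ± 0.0472 (edgeR adjusted p = 0.00176; 0.0602 without Menthae Herba 500 replicate 3). It was the 1 gene of 42 called there, where 2.43% of all tested genes passed. In the other 4 tested extracts 0 of 42 passed for 500 against 20 by edgeR or DESeq2, with 1, 1, 1 and 2 at an unadjusted p under 0.05 in Saposhnikoviae Radix, Saengmaek-san, Soyo-san and Okbyeongpung-san, where 0.0811%, 0%, 0.614% and 0.0985% of all tested genes passed. Over the comparisons of 20 and 100 with vehicle in all 6 extracts there were 2 calls, ULK1 at 0.14 in Soyo-san 20, where 1.99% passed, and ATP6V1B2 at -0.21 in Soyo-san 100, where 1.77% passed; 0 of these calls were left without vehicle replicate 1, 2 or 3. Over all tested genes the share passing at 20 and at 100 was 0.382% and 0.974% with Menthae Herba, 0.991% and 0.666% with Saposhnikoviae Radix, 0.452% and 0.666% with Saengmaek-san, and 1.09% and 1.37% with Okbyeongpung-san.

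**Figure D4:**
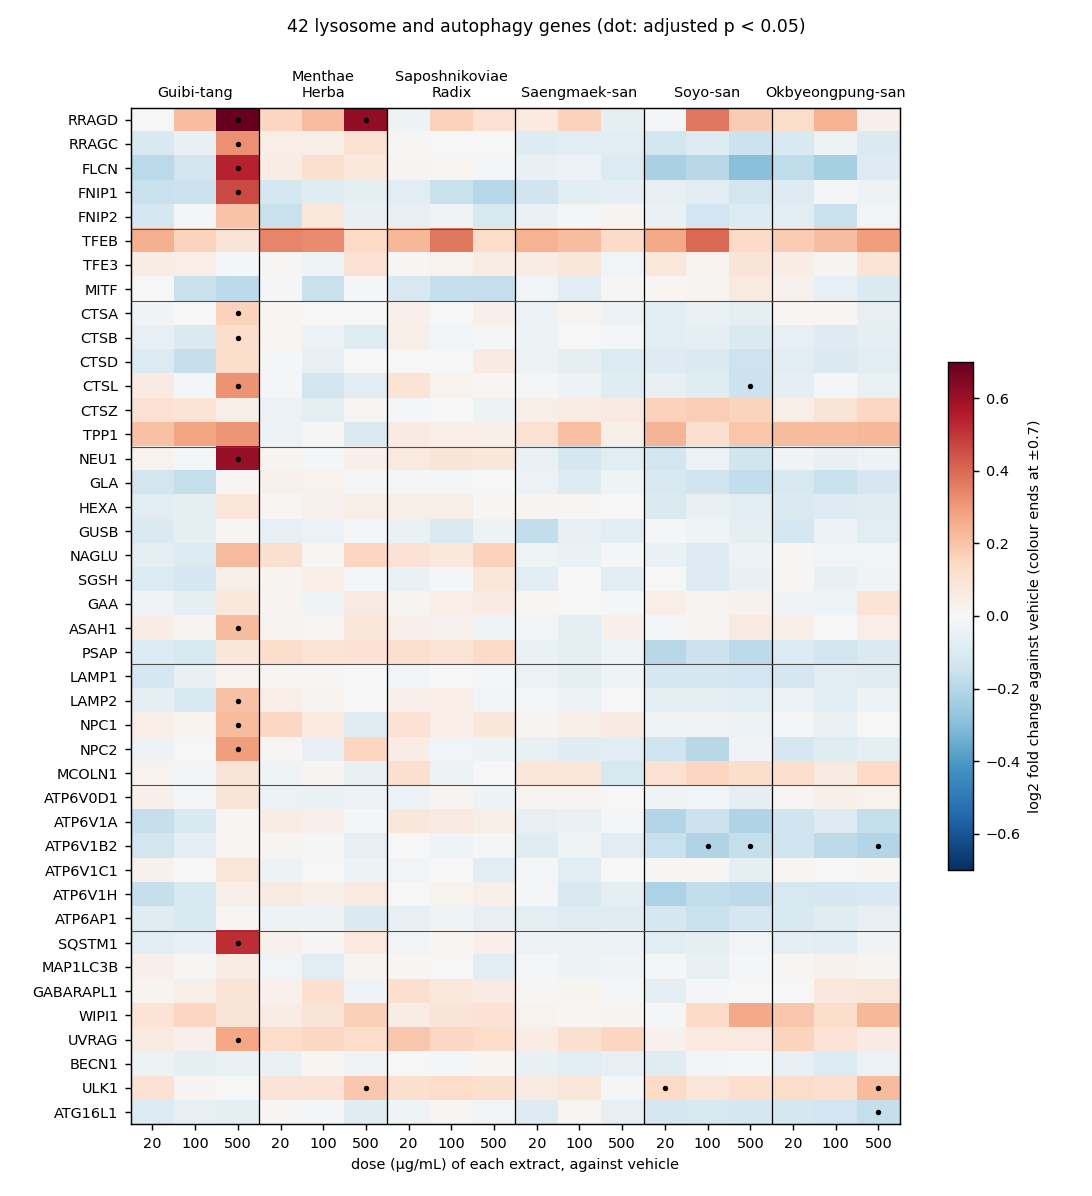
Log2 fold change against vehicle of the 42 genes (rows, by role) for 6 extracts at 20, 100 and 500 µg/mL (columns), with dots where the adjusted p was under 0.05 and colours that end at ±0.7. The Guibi-tang 500 column holds 14 of the dots, and no other column holds more than 3.

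Whether the Guibi-tang change differed from that of the other extracts was tested directly, as the change of 500 against 20 with Guibi-tang minus that with each other extract. These contrasts use no vehicle library, but all 5 share the Guibi-tang libraries. Replicate 3 of Guibi-tang 500 and replicates 2 and 3 of Guibi-tang 20 lie after the step, so it enters each difference. The differences given here come from the fit without a step term. With that term 13 of 42 rose for Guibi-tang 500 against 20, with a median of 0.10 over the 42, where 1.2% of all tested genes passed. Of the 42 genes, 9 were higher in Guibi-tang than in Menthae Herba, 9 than in Saposhnikoviae Radix, 7 than in Saengmaek-san, 6 than in Soyo-san and 5 than in Okbyeongpung-san, and 0 were lower. Over all tested genes 0.997%, 0.243%, 0.296%, 0.122% and 0.0869% passed. RRAGC, FNIP1, NEU1 and SQSTM1 passed against all 5, FLCN and CTSL against 4 and RRAGD against 3. The RRAGD difference from Menthae Herba was 0.69 ± 0.230 with an adjusted p of 0.204, and that from Soyo-san 0.96 ± 0.238 with 0.105.

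**Figure D5:**
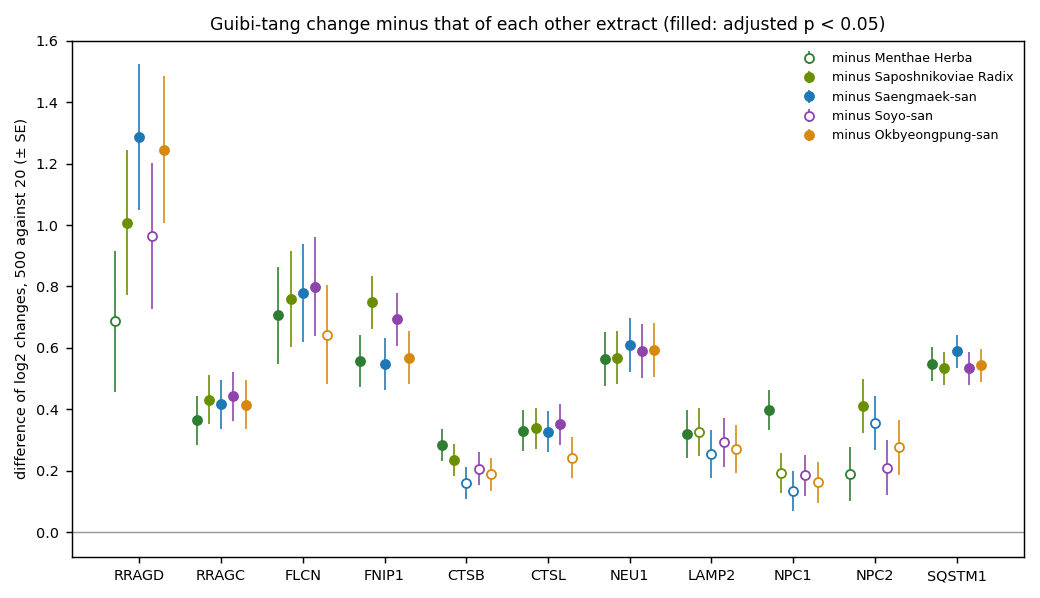
Difference between the log2 change of 500 against 20 with Guibi-tang and that with each other extract, with standard errors, for the 11 genes that passed in at least 1 contrast; filled points have an adjusted p under 0.05. Every point lies above 0, and SQSTM1, NEU1, FNIP1 and RRAGC are filled throughout. The genes were chosen by passing in these same contrasts, so their common direction is no separate result. Of the members not shown, MITF, CTSZ, WIPI1, BECN1 and ULK1 were below 0 in all 5 contrasts. The fit has no term for the step in the library order.

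Soshiho-tang had 1 library per dose. At 500, 24 of the 42 genes lay above the range of the vehicle libraries and 16 below it, where 36.9% and 36.2% of all tested genes did. At 20 the counts were 11 above and 16 below, where 32.3% and 32% of all tested genes did, and at 100 they were 12 and 16, where 32.3% and 31.1% did. The median log2 ratio of the 42 to the vehicle mean was -0.01 at 20, 0.01 at 100 and 0.06 at 500. SQSTM1 had 879 CPM, a log2 ratio of 0.22, NEU1 16.5 CPM (0.13), FNIP1 34.8 CPM (0.30) and RRAGD 2.56 CPM (0.60). RRAGD was also above vehicle at 20 of Soshiho-tang, with 2.31 CPM, and had 1.76 CPM at 100. WIPI1, which binds the lipid of forming autophagosomes, had the largest ratio of those named, at 8.91 CPM (0.80), and had 6.38 CPM at 20 and 6.70 CPM at 100. There is no replicate check on any of these ratios.

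Genes of the same pathways outside the 42 were counted from lists of 111, all of which were tested. These lists too were chosen with earlier results of these data known. With Guibi-tang 500 against vehicle, 9 of 111 rose and 1 fell, where 4.42% of all tested genes passed and 2.63% rose. The autophagy and nutrient-sensing lists had 6.45% and 8.33% passing, 2 genes each, which is little above that share for lists so short. Of 30 other lysosomal enzymes 4 rose, among them IDUA by 0.49 and CTSS by 0.40. Of 16 other membrane and transport genes 2 rose, the sialic acid exporter SLC17A5 by 0.45 and the cystine exporter CTNS by 0.40. Of 31 other autophagy genes 2 rose, the cargo receptor OPTN by 0.44 and VPS18 by 0.18, and of 10 other pump subunits 0 passed, with 1 at an unadjusted p under 0.05. Of 24 genes of mTORC1 and nutrient sensing, the arginine sensor CASTOR1 rose by 0.59 and SESN2, sestrin 2, fell by 0.60. Both calls hold against vehicle only: against Guibi-tang 20, 0 of the 24 passed, with changes from -0.17 to 0.27. Against Guibi-tang 20, 5 of the 111 rose, where 0.997% of all tested genes passed and 0.748% rose. Among the 5 were OPTN by 0.40, CTNS by 0.29, GM2A by 0.22 and ULK2 by 0.19.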

How the data were processed

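The values deposited by the authors are expected counts from RSEM, for 60675 genes and 60 libraries of A549 cells; per the submitters' processing notes, FastQC 0.11.9, Trim Galore 0.6.5, STAR 2.7.3a and RSEM 1.3.3 were used on hg38 (GRCh38). The annotation release and strand setting are not given in the sources used here. Per the labels' protocols, libraries were made with a directional kit from 1 µg RNA and read as 100 bp pairs. Of the deposited expected counts, 10.49% were not whole and were rounded. Symbols were matched for 57055 genes; positions and exon overlaps come from GENCODE 29.

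The vehicle and 6 extracts at 3 doses (57 libraries, 19 groups) shared 1 edgeR 4.0.16 quasi-likelihood fit in R 4.3.3 (limma 3.58.1): TMM, filterByExpr by group, 17256 genes, 38 residual degrees of freedom. P-values were adjusted by Benjamini-Hochberg over all tested genes within each of 29 comparisons (18 with vehicle, 6 of 500 with 20, 5 differences). SE comes from the fit. DESeq2 1.42.0, other scaling, filters, a step term, libraries before the step, a replicate block and leaving out single libraries were tried. The script was tested on simulated data.

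The main fit pairs no libraries, and the replicate block was tried as another setting over all groups. Every correlation of deviations between libraries of the same number was over 0.1 only in Saengmaek-san 500 against 20 (0.117, 0.194 and 0.345). There 0 genes passed with and without the block. No 2 libraries were copies: chi-square per degree of freedom was at least 1.847 over 1770 pairs.

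The members and gene lists were chosen with earlier results of these data known. Named genes are RRAGD, NEU1 and SQSTM1 in every group, the 3 transcription factors at 500, every member called at 500 or in a difference, and up to 3 called genes with the largest change per direction of each other list at Guibi-tang 500; the rest are named by role with their range. One gene that the rule would name is not reported here.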

Additional observations from a re-analysis of the deposited data

Results flagged for a closer look

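Each value here is a difference, on the log2 scale, between the change of 500 against 20 with Guibi-tang and the same change with another extract, that passed the edgeR test of the difference itself at an adjusted p under 0.05. All are above 0, and all 5 contrasts share the Guibi-tang libraries, which the step divides unevenly between 500 and 20. The fit had no term for the step. SQSTM1 differed by 0.55 from Menthae Herba, 0.53 from Saposhnikoviae Radix, 0.59 from Saengmaek-san, 0.53 from Soyo-san and 0.54 from Okbyeongpung-san. NEU1 differed by 0.56, 0.57, 0.61, 0.59 and 0.59 from the same extracts in that order. FNIP1 differed by 0.56, 0.75, 0.55, 0.69 and 0.57, and RRAGC by 0.36, 0.43, 0.42, 0.44 and 0.42, again in that order.

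FLCN differed by 0.71 from Menthae Herba, 0.76 from Saposhnikoviae Radix, 0.78 from Saengmaek-san and 0.80 from Soyo-san. CTSL differed by 0.33, 0.34, 0.33 and 0.35 from these 4 extracts. RRAGD differed by 1.01 from Saposhnikoviae Radix, 1.29 from Saengmaek-san and 1.25 from Okbyeongpung-san. CTSB differed by 0.28 from Menthae Herba and 0.23 from Saposhnikoviae Radix. LAMP2 and NPC1 differed from Menthae Herba by 0.32 and 0.40, and NPC2 from Saposhnikoviae Radix by 0.41. NPC1 also fell with Menthae Herba itself, so its difference holds both changes.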

How the results depend on the processing

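The 14 genes that rose with Guibi-tang 500 against vehicle were 13 to 18 under the 7 other settings, and 10 to 14 without single libraries; the 13 against 20 were 11 to 15, and 8 to 15 without single libraries, but 6 with only libraries before the step, where Guibi-tang 20 keeps 1 library that is assumed to vary like the rest. Menthae Herba 500 gave 2 against vehicle, 1 with no filter, 6 before the step (15.2% of all tested genes passed) and 1 to 2 without single libraries, and 1 against 20, 2 before the step and 0 to 1 without single libraries. Saposhnikoviae Radix 500 gave 0 against vehicle, 1 with the step term (5.8% of all tested genes), 4 before the step (9.39%) and 1 by DESeq2. Soyo-san 500 gave 2, 4 with no filter, 1 with the step term, 6 by DESeq2 and 0 to 2 without single libraries; Okbyeongpung-san 500 gave 3 (1 rose, 2 fell), 5 with the step term (5 rose, 0 fell, with 12.5% of all tested genes passing) and 1 to 2 without single libraries. The doses of 100 and 20 gave 2 calls, 10 with no filter, 9 with the step term, 6 by DESeq2 and 0 to 5 without single libraries. The differences gave 36, and 28 to 42 without single libraries. The share over all tested genes moved as well. With the step term it was 10% for Guibi-tang 500 against vehicle, from 4.42%, and 11.7% for Soyo-san 500, from 6.03%. Where a count has no share beside it, a move of the members cannot be told from one of all genes. The cause of these moves was not tested. With the replicate block the counts were 14 and 14 for Guibi-tang 500 against vehicle and 20, 2 and 1 for Menthae Herba, 2 and 3 for Soyo-san and Okbyeongpung-san, 3 for the lower doses, 37 for the differences and 0 elsewhere; outside Saengmaek-san 500 against 20 the libraries share only a number (Guibi-tang 500 against 20: 0.167, -0.195 and 0.086). The lower doses and differences have no value before the step, because Soyo-san and Okbyeongpung-san have no library there. Of the 35 single-gene calls at 500 against vehicle or 20, 0 reversed; 157 of 210 values without single libraries and 219 of 240 under other settings kept the call. The difference calls, the Soyo-san calls at 20 and 100, and the genes outside the 42 were not followed gene by gene.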

Other observations

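A few genes of nutrient sensing and autophagy outside the 42 passed in more than 1 extract at 500 against the same 3 vehicle libraries. Per extract, 1 or 2 of 24 nutrient-sensing genes and 0 to 3 of 31 autophagy genes passed, where 0.614% (Saengmaek-san) to 6.77% (Menthae Herba) of all tested genes did. SESN2, sestrin 2, a leucine sensor and stress gene, had 9.81, 9.68 and 9.53 CPM with Guibi-tang, 10.4, 10.5 and 9.16 CPM with Okbyeongpung-san, and 15.7, 14.9 and 13.3 CPM in vehicle. It fell on the log2 scale by 0.60 with Guibi-tang, 0.55 with Okbyeongpung-san, 0.47 with Soyo-san, 0.44 with Saengmaek-san and 0.40 with Saposhnikoviae Radix (edgeR adjusted p = 7.31e-05, 4.52e-04, 0.00182, 0.0166 and 0.019), and was -0.25 with Menthae Herba, which did not pass. OPTN, optineurin, had at least 33.2 CPM in the Guibi-tang libraries and 31.1 CPM in the Soyo-san libraries, and at most 25.8 CPM in the vehicle libraries. It rose by 0.44 with Guibi-tang, 0.35 with Soyo-san and 0.22 with Okbyeongpung-san. CASTOR1 rose by 0.59 with Guibi-tang, 0.41 with Saposhnikoviae Radix and 0.37 with Soyo-san. For 500 against 20, 0 of the 24 nutrient-sensing genes, SESN2 and CASTOR1 among them, passed in any of the 6 extracts. With Guibi-tang the changes of the 24 against 20 ran from -0.17 to 0.27. The calls against vehicle named here share the vehicle libraries, were chosen after their values were seen, and were not refitted without single libraries. All Soyo-san and Okbyeongpung-san libraries lie after the step and all vehicle libraries before it. In these extracts the effect of the extract and the step cannot be told apart, and these genes were not followed with a step term.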
